A study of Xenopus laevis with 6 samples.

Results

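Fibroblast growth factor (FGF) ligands and their receptors were followed in neuroectoderm explants of the frog Xenopus laevis. The members were taken by name, as every row whose symbol begins with fgf and a digit, and every row of fgfr1 to fgfr4 and fgfrl1. They came to 43 of 42549 rows, 34 for ligands (19 genes) and 9 for receptors (5 genes). The names decided membership, not the measured values.

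Explants were cut from wild type midgastrulae (stage 11.5) and joined in pairs with their inner faces together. In the stretched group, 3 samples were pinned to agarose and drawn out over 3 h. In the control group, 3 samples were pinned for 3 h but not drawn out. Explants of both groups were lysed for RNA after these 3 h, so the levels are not those at the time of cutting.

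FGFs are mostly secreted proteins that bind receptor tyrosine kinases at the cell surface together with heparan sulfate, a sugar chain of the matrix. The bound receptor signals through the docking protein Frs2, Ras and the kinase Erk. In the Xenopus gastrula the pathway is known for the formation of mesoderm and for posterior fates in the neural plate. The frog is allotetraploid, so that most genes occur as a pair of homeologs, an .L and an .S copy.

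The value of each row is an average log2 CPM (CPM are counts per 1000000 reads of a library) over all 6 samples, stretched and control together. It shows which FGF genes the explants expressed, but neither a spread between replicates nor a difference between the groups. Low values lie in whole steps, which allowed the reads of each row, summed over all samples, to be recovered. They add up to about 50809564 reads, a mean of 8468261 reads per sample, if 2 counts were added to each library as the steps imply. These are reads counted for the rows of the table, not reads sequenced, and depth here means the counted reads. The study's methods state a far larger number of generated reads per sample, so on this recovery most of those reads did not enter the counts. Read numbers over 24 are approximate, and all intervals cover counting error only. Reads grow with transcript length, which was not known here, so reads of different genes are not compared as numbers of transcripts. In such bulk samples, fewer cells with a transcript and less RNA per cell cannot be told apart.

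The labelled tissue was checked against marker genes. Of 16 rows listed as neural plate genes 15 stood above 1 CPM, beside 44.4% of all rows of the table. The row below that level was nrp1.L with about 27 reads, and whether this symbol names a neural plate gene was not checked. The median log2 CPM of these 16 rows was 5.71. Epidermal genes had 11 of 12 rows above 1 CPM and a median of 8.11, higher than that of the neural plate genes. Mesodermal genes had 6 of 7 rows above 1 CPM (median 1.69) and endodermal genes 7 of 11 (median 0.55). Among mesodermal rows, tbxt.S (6.79) and tbxt.L (5.84) of the brachyury gene stood highest, and gsc.S followed at 1.84. Among endodermal rows, a2m.S stood highest at 6.78, and foxa1.S followed at 1.96. The listed genes chrd, myod1, noto and sox17b were not analysed here. The study reports that tbxt, gsc and otx2 changed with stretching. Their levels here pool both groups, so they may not reflect the tissue alone. Markers of other tissues were thus counted beside those of the neural plate, and their part in the FGF values was not tested.

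The receptor rows stood higher in the table than the ligand rows, in reads that are not corrected for length. A log2 CPM above 0, that is over 1 CPM, was reached by 6 of 34 ligand rows (17.6%) and by 8 of 9 receptor rows (88.9%), beside 44.4% of all rows of the table. The median log2 CPM was -1.86 over ligand rows, 4.35 over receptor rows and -0.86 over all rows. Summed CPM came to 42.6 for the ligands and 472 for the receptors, a ratio of 11.1. Counted in recovered reads, which leave out the counts added to each library, the ligands took 1749 reads and the receptors 23803, a ratio of 13.6.

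**Figure D1:**
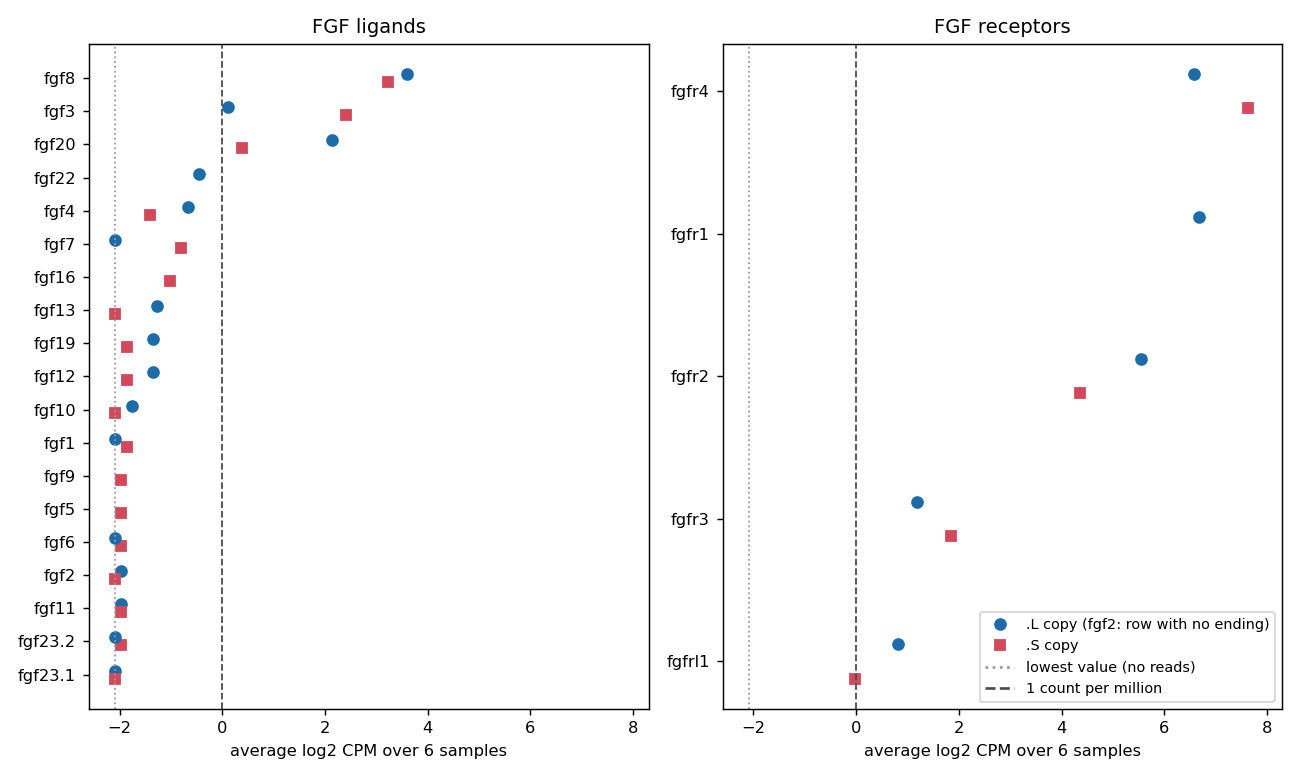
Average log2 CPM over 6 samples (horizontal axis) of every ligand row (left) and receptor row (right), with circles for .L copies and squares for .S copies. The dotted line is the lowest value of the table (-2.08, no reads) and the dashed line is 1 CPM. Only fgf8, fgf3 and fgf20 among the ligands lie right of the dashed line, and among receptor rows only fgfrl1.S falls just left of it.

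Among the ligands, fgf8, fgf3 and fgf20 were the genes detected above 1 CPM, each with both copies. fgf3.L passed only with the counts added to each library, since its reads alone came to 0.846 per 1000000 reads, and 5 of 34 ligand rows passed with the lowest value subtracted. The 6 rows held 1626 of the 1749 ligand reads, or 93.0% (exact binomial interval 91.7 to 94.1%). The other 28 rows together held 123 reads.

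fgf8, a ligand made in the ring of forming mesoderm of the gastrula and later at the midbrain-hindbrain boundary, took the largest share. Its .L copy had a log2 CPM of 3.60, which is 12.1 CPM and about 603 reads. Its .S copy had 3.22, which is 9.30 CPM and about 459 reads. Both copies together made up 60.7% of the ligand reads (58.4 to 63.0%). fgf8.L had more reads than 76.9% of all rows, and fgf8.S more than 74.4%. So even the ligand with the most reads stood in the upper part of the table but not near its top. The relatives of fgf8 in the same subfamily, fgf17 and fgf18, were not analysed here.

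fgf3, which acts in posterior and hindbrain patterning, followed with 17.2% of the ligand reads (15.4 to 19.0%). fgf3.S had a log2 CPM of 2.41 (5.31 CPM, about 257 reads) and fgf3.L one of 0.12 (1.09 CPM, about 43 reads). Most reads of this gene thus belonged to the .S copy.

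fgf20, a member of the fgf9 subfamily, held 15.1% of the ligand reads (13.4 to 16.9%). fgf20.L had a log2 CPM of 2.13 (4.37 CPM, about 210 reads) and fgf20.S one of 0.38 (1.30 CPM, about 54 reads). In this gene the .L copy carried most reads. Its relatives were rare, with 13 reads for fgf16.S and 1 read for fgf9.S over all samples.

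fgf4, known in Xenopus as eFGF and as the partner of brachyury in a loop that maintains mesoderm, stayed under the detection level. fgf4.L had a log2 CPM of -0.66 with 20 reads (exact Poisson interval 12.2 to 30.9), and fgf4.S had -1.42 with 7 reads (2.81 to 14.4). The gene thus had 27 reads over all samples. Its relatives fgf5.S and fgf6.S had 1 read each, and fgf6.L had none. fgf6.L overlaps LOC108710782 (16 reads) in the RefSeq annotation, so its count is less certain.

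Besides fgf3, the fgf7 subfamily holds fgf7, fgf10 and fgf22, which were also low. fgf22.L had a log2 CPM of -0.45 with about 25 reads, fgf7.S one of -0.80 with 17 reads and fgf10.L one of -1.76 with 3 reads. fgf7.L and fgf10.S had no reads. fgf7.L overlaps fam227b.L (15 reads) in the RefSeq annotation, and reads in an overlap may be dropped or given to the other gene. Counts of this size give wide intervals, such as 9.90 to 27.2 reads for fgf7.S.

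The fgf1 subfamily, whose members leave cells without a signal peptide, was close to absent at this depth. fgf1.S had 2 reads, the fgf2 row without an ending had 1, and fgf1.L and fgf2.S had none. The protein of fgf2 is known as a mesoderm inducer when added to Xenopus animal caps. The fgf2 row overlaps nudt6.L in the RefSeq annotation, a gene transcribed from the opposite strand in other vertebrates. nudt6.L had 404 reads. Whether the counting used strand is not stated, so the single fgf2 read cannot be placed with certainty.

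The endocrine ligands of the fgf19 subfamily held 11 reads in 6 rows. fgf19.L had 8 reads and fgf19.S had 2. Of the fgf23 rows, which encode a hormone of phosphate balance in mammals, fgf23.2.S had 1 read and the other 3 had none.

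The fgf11 subfamily encodes proteins that stay inside the cell, bind sodium channels and do not activate FGF receptors under usual conditions. It held 21 reads in 6 rows, with 9 for fgf13.L, 8 for fgf12.L, 2 for fgf12.S, 1 for each fgf11 copy and none for fgf13.S.

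In all, 9 ligand rows had no read in any sample, and 7 had a single read. A count of 0 was taken to allow up to 3 reads over all samples, and the exact interval reaches 3.69 reads. Transcripts below that level could therefore have been missed at this depth. At least 1 read was found in 25 of 34 ligand rows (73.5%), beside 70.7% of all rows. The share of ligand rows with any read was thus close to that of the whole table, and the share above 1 CPM was lower.

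**Figure D2:**
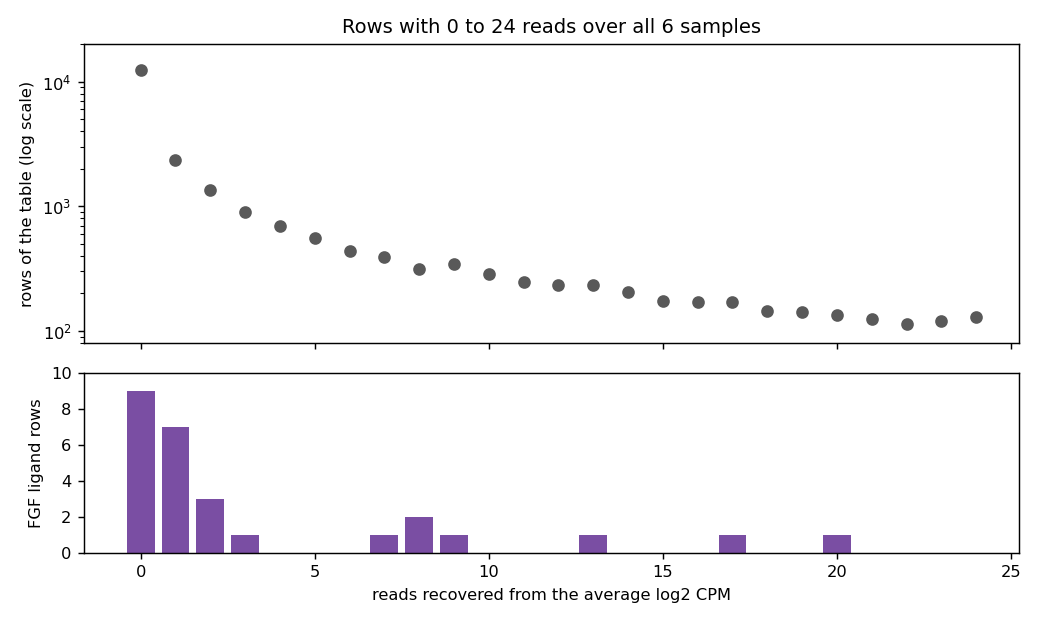
Rows of the table by their reads summed over 6 samples, from 0 to 24 (horizontal axis), for all rows (top, log scale) and for FGF ligand rows (bottom). The all-row counts fall from 12476 rows without reads and 2346 rows with 1 read, and 9 and 7 ligand rows lie at these values.

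The receptors were led in reads by fgfr4. fgfr4.S had a log2 CPM of 7.64 (199 CPM, about 10068 reads), more than 98.0% of all rows. fgfr4.L had 6.57 (95.1 CPM, about 4805 reads). Both copies together took 62.5% of the receptor reads (61.9 to 63.1%).

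fgfr1, a receptor whose truncated form blocks mesoderm formation in Xenopus, is listed as fgfr1.L only. It had a log2 CPM of 6.67 (102 CPM, about 5164 reads) and 21.7% of the receptor reads (21.2 to 22.2%). The annotation gives fgfr1.S as another name of this row, so no second copy was looked at.

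fgfr2, whose splice forms differ in the ligands they bind, had 14.2% of the receptor reads (13.8 to 14.6%). fgfr2.L had a log2 CPM of 5.55 (46.7 CPM, about 2356 reads) and fgfr2.S one of 4.35 (20.4 CPM, about 1022 reads). The row does not tell the splice forms apart. fgfr1, fgfr2 and fgfr4 together held 98.4% of all receptor reads.

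fgfr3 was much closer to the detection level, at a log2 CPM of 1.85 for fgfr3.S (about 170 reads) and 1.18 for fgfr3.L (about 103 reads). fgfrl1 encodes a receptor without a tyrosine kinase domain, which binds FGFs but does not signal as the others do. It had a log2 CPM of 0.81 for fgfrl1.L (about 77 reads) and -0.02 for fgfrl1.S (about 38 reads), just under the detection level. All 9 receptor rows had at least about 38 reads.

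The homeologs of one gene were then set side by side. Of 19 pairs among the members, 7 had at least 1 copy above the detection level. The .L copy was higher in 4 of these (fgf8, fgf20, fgfr2 and fgfrl1) and the .S copy in 3 (fgf3, fgfr4 and fgfr3). Over all 5875 such pairs of the table the .L copy was higher in 56.9%. The median absolute log2 difference between copies was 1.07 for the 7 FGF pairs and 1.27 for the 5875 pairs of the table.

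The widest gap among the detected pairs was that of fgf3, with 14.3% of its reads on the .L copy (10.6 to 18.8%), and fgf20 leaned the other way with 79.5% (74.2 to 84.2%). fgf8 was the most even pair, with 56.8% on the .L copy (53.7 to 59.8%). Among receptors, the .L copy took 32.3% of the fgfr4 reads (31.6 to 33.1%), 69.7% of the fgfr2 reads (68.2 to 71.3%), 37.7% of the fgfr3 reads (32.0 to 43.8%) and 67.0% of the fgfrl1 reads (57.6 to 75.4%). None of these intervals holds 50%. They leave out the spread between samples, and reads that fit both copies could have been given to either or dropped, so the split is uncertain.

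Pairs of few reads allow less. All 17 fgf7 reads lay on the .S copy, where the .L share could reach 19.5%, and all 9 fgf13 reads on the .L copy, where it could be as low as 66.4%. The fgf7 interval leaves out reads that the overlap of fgf7.L with fam227b.L may have cost. For fgf4, 74.1% of 27 reads lay on the .L copy (53.7 to 88.9%). fgf12 and fgf19 each had 8 of 10 reads on the .L copy, with an interval of 44.4 to 97.5% that includes an even split. The other pairs had 3 reads or fewer.

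**Figure D3:**
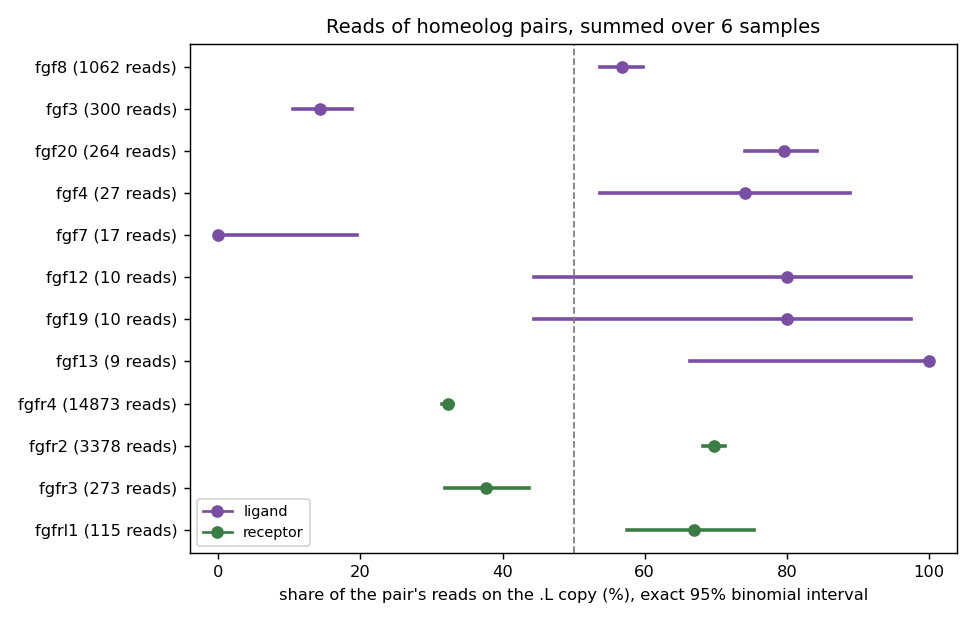
Share of a homeolog pair's reads on the .L copy (horizontal axis, percent) for the 12 pairs with at least 9 reads over 6 samples. Points are shares, bars are exact 95% binomial intervals of counting error, and the dashed line is an even split. The intervals of fgf12 and fgf19 alone cross it.

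The position of the genes was looked up in the RefSeq annotation. fgf3, fgf4 and fgf19 lie next to each other on both homeologous chromosomes. In the annotation they run in this order on the L chromosome and in the reverse order on the S chromosome. The reads of fgf3, fgf4 and fgf19 were about 43, 20 and 8 on the L chromosome. On the S chromosome they were about 257, 7 and 2. The counting intervals of fgf4 and fgf19 overlap on both chromosomes, and the reads are not corrected for length, so no trend along the row was read from them. The copy with more reads was .S for fgf3 and .L for fgf4 and fgf19, though the interval of fgf19 includes an even split. A second row of neighbours, fgf23.1, fgf23.2 and fgf6, held 0, 0 and 0 reads on the L chromosome and 0, 1 and 1 on the S chromosome.

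Some other neighbours had many more reads than the FGF gene beside them, and some had far fewer. Others had like numbers, such as prdm8.S beside fgf5.S with 1 read each. spry4, which encodes a Sprouty inhibitor of FGF signaling, lies beside fgf1 on both chromosomes. It had 908 reads (spry4.L) and 235 reads (spry4.S), against 0 and 2 for fgf1. npm3, which encodes a nucleoplasmin, follows fgf8 and had 6296 reads (npm3.L) and 12503 reads (npm3.S). The nodal genes nodal6.L and nodal5.2.L, which precede fgfr1.L, had no reads.

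Genes that act with the FGFs were described from lists of the pathway. Of 48 rows for co-receptors, heparan sulfate and FGF carriers, 30 (62.5%) were above 1 CPM, beside 44.4% of all rows. The 3 rows with the most reads were gpc4.L, a glypican that carries heparan sulfate (log2 CPM 7.71), sdc1.L, a syndecan (6.34), and sulf1.L, an enzyme that removes sulfate groups and tunes FGF binding (6.20). Of the 27 genes with a row, those with none above 1 CPM were anos1, fgfbp1, fgfbp2, fgfbp3, gpc2, gpc3, gpc6, kl, klb and sdc3, and hs6st2 and hs6st3 were not analysed here. kl and klb encode the Klotho co-receptors that endocrine FGFs need in mammals. Their 4 rows had 7 (kl.S), 1 (kl.L), 1 (klb.S) and 0 (klb.L) reads. Both the endocrine ligands and their co-receptors were therefore near the lowest value of the table.

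Of 37 rows for adaptors and the Ras to Erk cascade, 35 (94.6%) were above 1 CPM, beside 44.4% of all rows. The median log2 CPM of these 37 rows was 5.54. The 37 rows belong to 20 of the 23 genes of the list, and map2k2, mapk3 and rras were not analysed here. The 3 rows with the most reads were map2k1.L, the kinase that activates Erk (7.40), hras.L (7.07) and kras.S (6.90). The docking protein gene frs2 had a log2 CPM of 6.68 for frs2.L and 5.55 for frs2.S. Its relative frs3 was the gene among these 20 with no row above 1 CPM, with 22 reads for frs3.S and 1 for frs3.L.

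Feedback genes and transcriptional targets of the pathway were also detected. They had 24 of 28 rows (85.7%) above 1 CPM, beside 44.4% of all rows, and a median log2 CPM of 3.89. The 3 rows with the most reads were the Ets factors etv1.S (7.99) and etv4.L (7.92) and il17rd.S, which encodes the FGF inhibitor Sef (7.46). spred3 and spry3 had no row above 1 CPM, and etv5 was not analysed here. dusp6, an Erk phosphatase, had a log2 CPM of 5.06 (dusp6.S) and 4.19 (dusp6.L). The lowest of these 28 rows was spred3.L with 1 read.

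**Figure D4:**
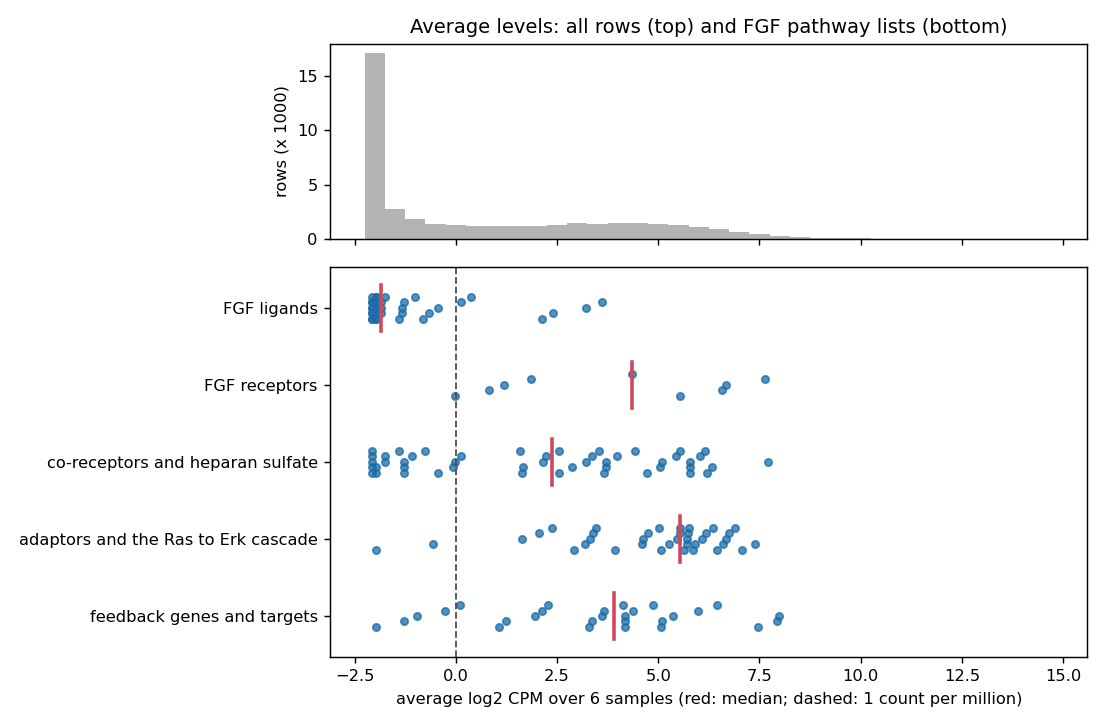
Average log2 CPM over 6 samples (horizontal axis) of all rows of the table (top, number of rows in units of 1000) and of each row of the FGF ligands, receptors and pathway lists (bottom). Red bars are medians and the dashed line is 1 CPM. The ligands have a median of -1.86. The receptors (4.35), co-receptors and heparan sulfate (2.385), cascade (5.54) and feedback genes (3.89) have medians to the right of the line.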

How the data were processed

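Poly(A) RNA of 6 samples of double explants (3 control and 3 stretched) was sequenced. Mapping was performed with STAR according to the study's methods, and the submitters' notes name TopHat2, HTSeq, DESeq and edgeR, without versions. The build and annotation behind the counts are not stated. The table the authors deposited holds 42549 rows with a log2 fold change, an F, a p-value and an FDR of their own comparison, none of which was used, and an average log2 CPM, which was. No contrast between the groups and no test was therefore made, and values of single samples were not used.

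The deposited average log2 CPM has a lowest value of -2.08 (0.237 CPM), shared by 12476 rows. The values above it rise in steps of the lowest CPM divided by 12, as whole reads give when 2 counts are added to each of 6 libraries. On that assumption each value was turned into reads summed over all samples. Of the rows with 1 to 12 reads, 100% came out within 0.05 of a whole number, and of those with 13 to 24 reads 99.4%, while larger numbers are approximate. The reads add up to 50809564 reads, a mean of 8468261 reads per sample. The recovery was tested on simulated data made with 2 counts added to each of 6 libraries of nearly equal size. Because these settings were built in, that test cannot show whether they hold for the deposited values. Intervals are exact 95% Poisson or Clopper-Pearson intervals and cover counting error only.

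The detection level was a log2 CPM of 0, that is 1 CPM. All members above it were to be named, and of each pathway list the 3 rows of most reads and the genes without a row above the level. Members and lists were chosen with earlier results of these data known. All 43 members were found by symbol in the RefSeq annotation of assembly v10.1, consulted for gene names, gene order and overlaps, with no coordinates given since the build of the counts is not stated. Alternatives were other detection levels, the lowest value subtracted, and other choices of pairs or members. Python 3.11.15, scipy 1.17.1, numpy 2.4.6 and pandas 2.3.3 were used.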

Additional observations from a re-analysis of the deposited data

How the results depend on the processing

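At a log2 CPM above 1 the rows were 4 of 34 for ligands and 7 of 9 for receptors, beside 16488 of 42549 rows of the table. Above -1 they were 9 of 34 and 9 of 9, beside 21758 of 42549 rows. The next 3 levels were chosen after seeing the data. With the lowest value subtracted, 5 of 34 ligand and 8 of 9 receptor rows were over 1 CPM, beside 42.7% of all rows. At least 10 reads were held by 10 of 34 ligand rows and 9 of 9 receptor rows. The share of all rows was not computed at exactly 10 reads, but 45.7% of all rows had fewer than 9 reads and 48.3% fewer than 13. At least 1 read was held by 25 of 34 (73.5%) and 9 of 9 (100%), beside 70.7% of all rows. The ligand share lay below the receptor share at each level, and they were closest at 1 read. With the lowest value subtracted from each row, the summed ligand level moved from 42.6 to 34.5 CPM, the share of fgf8 in it from 50.4 to 60.7%, and the ratio of receptors to ligands from 11.1 to 13.6, because the added counts weigh most in rows with few reads. The receptor sum and the share of fgfr4 in it stayed within their counting intervals. With the lowest value not subtracted, the ratio of receptors to ligands was 11.0 without fgfrl1. It was 11.6 without the fgf11 subfamily, whose proteins stay inside the cell. Both lay within the counting interval of the ratio. The .L copy was higher in 4 of 7 pairs with at least 1 copy above the detection level (57.1%), beside 56.9% of such pairs in the table. Over all 19 pairs it was higher in 10 (52.6%) and the .S copy in 7, beside 53.2% with .L higher over all pairs of the table. No paired analysis was possible because an average over all samples carries no replicate numbers. For the same reason the planned count test, its other normalization and filter, and the fits leaving out a replicate were not run. Levels per kilobase of coding length and protein identity between homeologs were not run, as no lengths or sequences were used here. Depth limits what can be said of 9 ligand rows with no read, and of 7 with a single read.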
